A study of Mus musculus with 8 samples.

Results

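The genes of cholesterol synthesis, uptake and transport were followed in regenerating mouse liver. The 31 listed members were chosen by name for their role in the pathway, by a rule that uses no measured value but was written with earlier results of these data known: 8 act in the mevalonate pathway, 11 between squalene and cholesterol, 5 regulate sterol-dependent transcription and uptake, and 7 move or store cholesterol. All 31 had a probe among the 18316 genes that RefSeq names on the array, and all 31 were among the 14142 genes tested, since each was well above background on all 8 arrays and saturated on 0. The liver RNA came from Mxcre- and Mxcre+ mice of strain 129/SV/B6, sampled at 0, 24, 36 and 48 h after partial hepatectomy (PHx), with 1 array per genotype and time. These hours are those of the sample titles; a treatment note among the labels has the liver examined 1 week after surgery instead, and the disagreement could not be settled. Mice of both genotypes had undergone irradiation with transfer of bone marrow 2 months before, and poly(IC) had been given 1 week before. Mxcre is a Cre recombinase driven by an interferon-responsive promoter, which poly(IC) switches on in hepatocytes and also in blood and other cells. The series design gives 4 livers as Survivin-deleted and 4 as wild type, and the labels state no further allele, no marrow donor genotype, and neither whether an array held 1 animal or a pool nor which sex it was. No group had a replicate liver, so within-time differences have no error from livers, and the p-values below measure only how steady a difference was across times or genotypes.

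Cholesterol is built in the cytosol and endoplasmic reticulum from acetyl-CoA, through mevalonate and isoprenoids to squalene, which is closed to lanosterol and then trimmed to cholesterol. When membrane sterol is low, Scap escorts the transcription factor precursor Srebf2 (SREBP-2) to the Golgi, and the released factor raises transcription of most synthesis enzymes; Insig proteins hold Scap back when sterol is plentiful. Liver makes cholesterol, takes it up from lipoproteins and turns it into bile acids, and dividing hepatocytes need it for new membrane.

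The start-proximal promoter windows of Srebf2 and of some synthesis enzymes that differed between the genotypes at 48 h are shown. SREBP-2 and NF-Y, which act side by side on many promoters of the pathway, bind short elements there. RefSeq promoter windows on build GRCm38.p6 were matched for 24 of the 31 members, and the 250 bases before each start were searched on both strands for 4 sets of letters. The classic sterol element TCACNCCAC was found in 1 of the 24 members (4.17%) and in 1.23% of all 27018 genes. The shorter form TCACNNCA, which holds every match of the longer one, was found in 9 of 24 (37.5%) against 13% of genes. CCAAT, the core bound by NF-Y, was found in 21 of 24 (87.5%) against 37.5% of genes. The GC box GGGCGG was found in 21 of 24 (87.5%) against 35.4% of genes, and genes with several starts had more chances of a match. The 27018 genes are all those with a window, whether or not they were tested on the array. They were not matched to the members in base composition. Each window below runs 5′ to 3′ toward the gene, with TCACNNCA and CCAAT matches of either strand in capitals. A CCAAT match and a TCACNNCA match can overlap, as in Msmo1.
Hmgcs1 (chr13:119690101-119690350, plus strand): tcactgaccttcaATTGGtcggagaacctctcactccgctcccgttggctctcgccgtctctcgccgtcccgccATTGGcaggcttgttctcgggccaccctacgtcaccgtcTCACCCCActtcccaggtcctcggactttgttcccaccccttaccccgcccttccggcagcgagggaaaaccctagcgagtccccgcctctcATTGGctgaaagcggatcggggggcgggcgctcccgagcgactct
Msmo1 (chr8:64733579-64733828, minus strand): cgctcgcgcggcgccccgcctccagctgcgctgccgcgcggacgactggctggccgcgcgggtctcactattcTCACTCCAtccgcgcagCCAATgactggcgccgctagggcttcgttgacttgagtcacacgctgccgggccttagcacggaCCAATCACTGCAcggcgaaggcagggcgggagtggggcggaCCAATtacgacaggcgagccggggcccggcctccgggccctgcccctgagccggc
Cyp51 (chr5:4104698-4104947, minus strand): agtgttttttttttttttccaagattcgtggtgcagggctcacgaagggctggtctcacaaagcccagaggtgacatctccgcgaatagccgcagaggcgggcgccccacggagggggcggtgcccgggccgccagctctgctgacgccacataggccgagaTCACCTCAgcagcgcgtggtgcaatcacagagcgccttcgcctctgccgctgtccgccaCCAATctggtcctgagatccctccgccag
Srebf2 (chr15:82147019-82147268, plus strand): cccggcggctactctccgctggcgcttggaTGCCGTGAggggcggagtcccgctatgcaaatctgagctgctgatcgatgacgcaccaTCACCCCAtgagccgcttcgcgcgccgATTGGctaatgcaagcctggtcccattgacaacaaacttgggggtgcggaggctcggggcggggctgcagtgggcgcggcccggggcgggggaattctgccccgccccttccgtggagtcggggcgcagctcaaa
Lss (chr10:76531355-76531604, plus strand): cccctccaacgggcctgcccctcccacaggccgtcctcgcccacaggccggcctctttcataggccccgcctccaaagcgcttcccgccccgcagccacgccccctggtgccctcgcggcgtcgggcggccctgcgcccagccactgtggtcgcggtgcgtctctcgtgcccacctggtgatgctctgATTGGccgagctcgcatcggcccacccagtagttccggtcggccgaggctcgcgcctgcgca
Nsdhl (chrX:72918271-72918520, plus strand): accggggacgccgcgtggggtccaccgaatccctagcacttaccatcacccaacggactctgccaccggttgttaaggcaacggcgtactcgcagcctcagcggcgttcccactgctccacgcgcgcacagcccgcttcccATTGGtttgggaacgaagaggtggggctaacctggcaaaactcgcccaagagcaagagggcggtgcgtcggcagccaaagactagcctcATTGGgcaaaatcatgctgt
The match in Hmgcs1 begins 137 bases before the start and the match in Cyp51 begins 88 bases before it. Msmo1 and Srebf2 hold 2 matches of TCACNNCA each, while the windows of Lss and Nsdhl hold none, and their capitals are CCAAT matches. Of the 12 members with a window that were at least 2-fold higher in Mxcre+ liver at 48 h (described below), 6 held TCACNNCA and 12 held CCAAT. Of the other 12, 3 held TCACNNCA and 9 held CCAAT. These are letter matches, and no binding was measured.

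Levels are log2 processed signals from which each array's 75th percentile was subtracted, so that a level of 0 is the signal at that percentile, and they are compared only within a probe. The arrays were alike in quality, with 60.2% to 66% of 43379 spots well above background and a median coefficient of variation of 4.56% to 6.17% between spots of the same probe. The scanner software's own error was at most 0.15 on the log2 scale for any member on any array. Birc5 (Survivin) was lower in Mxcre+ liver at each time, with 5.03 against -1.20 at 48 h, the direction that the labels give. The hepatocyte marker Alb lay between 9.86 and 10.21 on all 8 arrays. The 4 Y-linked genes were not above background on both 0 h arrays and on the Mxcre+ arrays of 36 and 48 h, and were all above it on the Mxcre- arrays of 24, 36 and 48 h; on the Mxcre+ array of 24 h 1 of 4 was not.

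At 48 h after hepatectomy the sterol synthesis enzymes stood at their lowest mean level in Mxcre- liver and at their highest in Mxcre+ liver. Of the 31 members, 15 were at least 2-fold higher in Mxcre+ than in Mxcre- liver at 48 h and 0 at least 2-fold lower, where 2.5% and 3.16% of 12902 genes above background on both arrays passed these folds. At 0, 24 and 36 h 0 members passed 2-fold in either direction, where 1.18%, 0.793% and 2.24% of genes were higher and 2.57%, 1.19% and 2.32% lower. The median difference over the 31 members was -0.13, 0.06 and -0.12 at the first 3 times and 0.94 at 48 h, and that over all tested genes lay between -0.04 and 0.01. In bulk tissue, fewer cells of a type and less RNA per cell cannot be told apart.

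**Figure D1:**
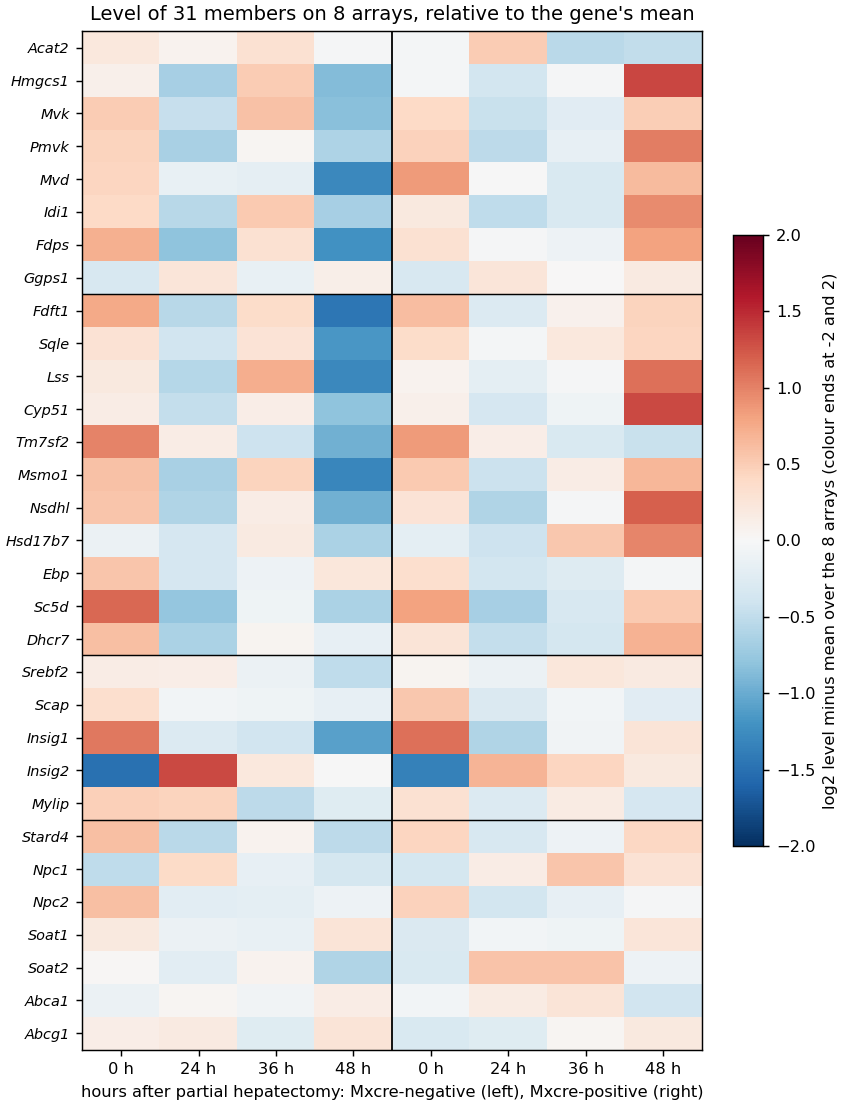
Levels of the 31 members (rows, grouped by role: mevalonate pathway, squalene to cholesterol, regulators, transport and storage) on the 8 arrays, as log2 level minus the gene's mean over the arrays; Mxcre- arrays are on the left and Mxcre+ arrays on the right, each in order of hours after hepatectomy. The Mxcre- array of 48 h is the lowest for 16 members, where it is so for 13.6% of tested genes. The Mxcre+ array of 48 h is the highest for 11, where it is so for 7.64%.

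The mevalonate pathway makes the isoprenoid units from acetyl-CoA, and 6 of its 8 members were at least 2-fold higher in Mxcre+ liver at 48 h. The level of Hmgcs1, the cytosolic synthase that forms HMG-CoA, was 5.65, 4.89, 6.06 and 4.68 at 0, 24, 36 and 48 h in Mxcre- liver and 5.51, 5.18, 5.52 and 6.89 in Mxcre+ liver. The Mxcre- array of 48 h was thus the lowest of the 8 and the Mxcre+ array of 48 h the highest, 4.62-fold apart. The level of Fdps, which makes farnesyl diphosphate, the branch point of the pathway, was 4.26, 2.74, 3.86 and 2.33 in Mxcre- liver and 3.86, 3.53, 3.45 and 4.35 in Mxcre+ liver, and was 4.07-fold apart at 48 h. The level of Mvd, the decarboxylase that yields isopentenyl diphosphate, was 1.94, 1.36, 1.33 and 0.22 in Mxcre- liver and 2.36, 1.49, 1.20 and 2.13 in Mxcre+ liver. Its Mxcre+ array of 48 h did not exceed the Mxcre+ array of 0 h, so the 3.74-fold gap came with a low Mxcre- array. Mvd was therefore unlike Hmgcs1, whose Mxcre+ array of 48 h exceeded all others.

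The mevalonate kinases and the isomerase showed the same split at 48 h. The level of Pmvk, the phosphomevalonate kinase, was 4.59, 3.50, 4.19 and 3.54 in Mxcre- liver and 4.61, 3.62, 3.98 and 5.17 in Mxcre+ liver, 3.09-fold apart at 48 h. The level of Idi1, which interconverts the isopentenyl units, was 5.06, 4.10, 5.18 and 4.0 in Mxcre- liver and 4.85, 4.16, 4.35 and 5.60 in Mxcre+ liver, 3.04-fold apart at 48 h. Both were highest of the 8 arrays in Mxcre+ liver at 48 h. The level of Mvk, the mevalonate kinase, was 0.88, -0.09, 0.96 and -0.46 in Mxcre- liver and 0.77, -0.07, 0.15 and 0.86 in Mxcre+ liver; its difference was -0.81 at 36 h and 1.33 at 48 h.

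The remaining members of the pathway stand at its entry and at a side branch and did not share this split. The level of Acat2, the cytosolic thiolase that joins acetyl-CoA units, was 5.95, 5.81, 6.05 and 5.72 in Mxcre- liver and 5.71, 6.26, 5.21 and 5.26 in Mxcre+ liver, with a difference of -0.46 at 48 h. The level of Ggps1, which draws farnesyl diphosphate off to geranylgeranyl diphosphate for protein prenylation, was -1.13, -0.56, -0.95 and -0.68 in Mxcre- liver and -1.12, -0.56, -0.80 and -0.63 in Mxcre+ liver. At no time did the genotypes differ by more than 0.15 on this brightest probe of Ggps1. Its other, dimmer probe, above background on 8 arrays, differed by -0.56, -0.25, 0.04 and -0.69 at 0, 24, 36 and 48 h.

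Between squalene and cholesterol, 8 of 11 enzymes were at least 2-fold higher in Mxcre+ liver at 48 h, and the median of the 11 differences was 1.61, as it was for the mevalonate pathway. The level of Lss, which closes squalene epoxide to lanosterol, was 1.44, 0.67, 1.96 and -0.05 in Mxcre- liver and 1.31, 1.05, 1.21 and 2.34 in Mxcre+ liver. It was 5.23-fold apart at 48 h, the widest gap of any member, after a difference of -0.75 at 36 h. The level of Nsdhl, a dehydrogenase that helps remove methyl carbons from lanosterol, was 2.24, 1.08, 1.83 and 0.72 in Mxcre- liver and 1.96, 1.08, 1.66 and 2.88 in Mxcre+ liver, 4.45-fold apart at 48 h. The level of Cyp51, the lanosterol demethylase, was 0.97, 0.35, 0.95 and 0.02 in Mxcre- liver and 0.92, 0.49, 0.74 and 2.14 in Mxcre+ liver, 4.34-fold apart at 48 h. For these 3 enzymes, the array pairs of 0 and 24 h differed by at most 0.38.

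For several enzymes the gap at 48 h lay mainly on the Mxcre- side. The level of Fdft1, squalene synthase, was 3.30, 2.00, 2.91 and 1.11 in Mxcre- liver and 3.17, 2.27, 2.64 and 3.0 in Mxcre+ liver, 3.69-fold apart at 48 h. The level of Sqle, squalene epoxidase, was 4.03, 3.35, 4.01 and 2.58 in Mxcre- liver and 4.11, 3.70, 3.95 and 4.17 in Mxcre+ liver, 2.99-fold apart. The level of Msmo1, the methylsterol monooxygenase, was 6.13, 4.89, 5.99 and 4.24 in Mxcre- liver and 6.07, 5.12, 5.69 and 6.21 in Mxcre+ liver, 3.93-fold apart. In Mxcre+ liver these 3 enzymes stood at 48 h within 0.17 of their level at 0 h, while in Mxcre- liver their difference from 0 h was between -2.18 and -1.44.

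Among the late steps the pattern was uneven. The level of Hsd17b7, a ketoreductase of the demethylation complex, was 4.72, 4.51, 5.02 and 4.21 in Mxcre- liver and 4.65, 4.43, 5.38 and 5.82 in Mxcre+ liver, 3.06-fold apart at 48 h. The level of Sc5d, a sterol desaturase, was 5.10, 3.18, 3.86 and 3.32 in Mxcre- liver and 4.75, 3.28, 3.62 and 4.47 in Mxcre+ liver, 2.21-fold apart at 48 h. Its highest arrays were those of 0 h in both genotypes. The level of Dhcr7, a terminal sterol reductase, was 5.14, 3.90, 4.59 and 4.37 in Mxcre- liver and 4.79, 4.06, 4.18 and 5.23 in Mxcre+ liver, 1.81-fold apart at 48 h. The level of Tm7sf2, a reductase that shares its step with the nuclear envelope protein Lbr, was 6.21, 5.36, 4.80 and 4.26 in Mxcre- liver and 6.06, 5.34, 4.91 and 4.77 in Mxcre+ liver. Tm7sf2 was lower at each later time than at the one before in both genotypes, 1.42-fold apart at 48 h. The level of Ebp, the sterol isomerase, was 7.42, 6.53, 6.76 and 7.09 in Mxcre- liver and 7.20, 6.50, 6.60 and 6.82 in Mxcre+ liver, with the Mxcre+ array the lower at each of the 4 times.

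**Figure D2:**
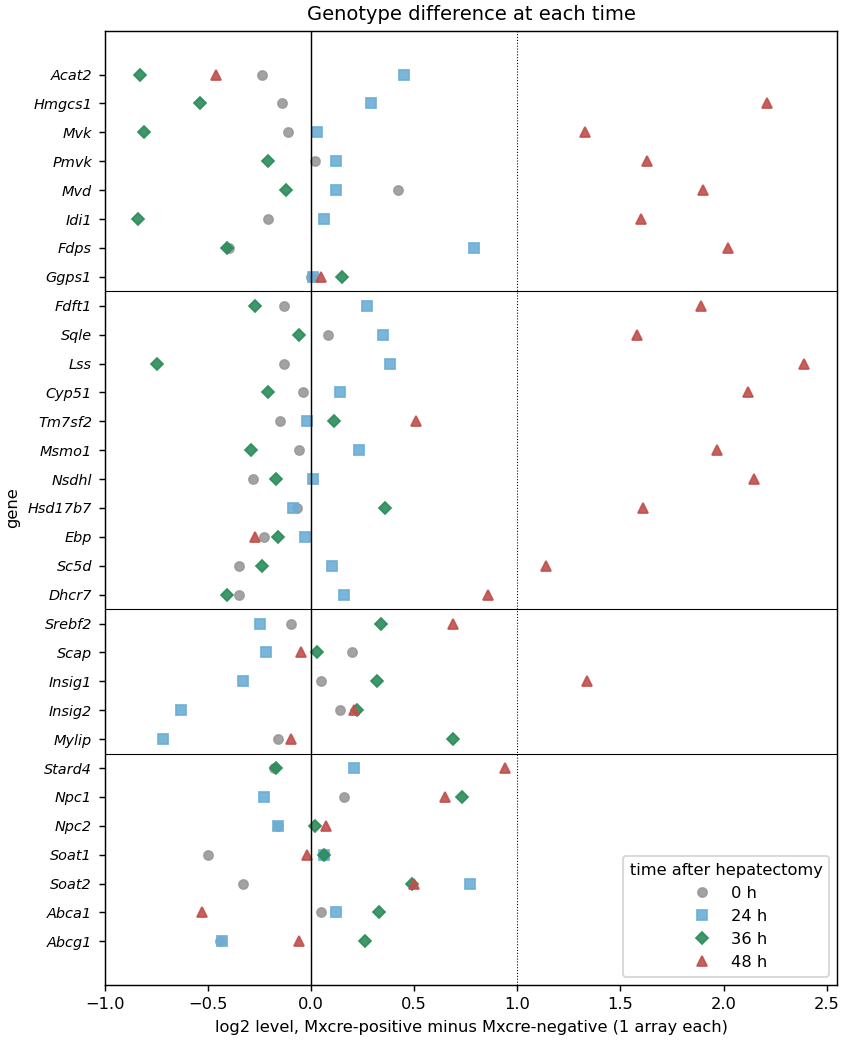
Log2 level in Mxcre+ minus Mxcre- liver for each member (rows) at 0, 24, 36 and 48 h (symbols), 1 array on each side; the dotted line marks 2-fold. At 48 h 15 members lie at or past the line, and at the earlier times all 31 lie between -0.84 and 0.79.

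Averaged over the 19 synthesis enzymes, the level was 3.89, 3.03, 3.65 and 2.70 at 0, 24, 36 and 48 h in Mxcre- liver and 3.77, 3.21, 3.35 and 4.08 in Mxcre+ liver. Against 0 h, 9 of 31 members were at least 2-fold lower and 1 higher at 24 h in Mxcre- liver, where 6.4% and 5.02% of genes were, and 2 were lower and 1 higher in Mxcre+ liver, where 5.9% and 6.08% were. At 48 h against 0 h 14 were lower and 1 higher in Mxcre- liver (7.57% and 6.53% of genes), while 1 was lower and 5 higher in Mxcre+ liver (8.09% and 7.81%). By their mean, the enzymes of both genotypes were lower at 24 h than at 0 h, and those of Mxcre- liver were lower at 48 h than at 36 h while those of Mxcre+ liver were higher. From 36 to 48 h, 10 of the 31 members were at least 2-fold lower in Mxcre- liver and 0 higher, where 1.65% of genes were lower and 3.31% higher. Over the same interval 7 members were at least 2-fold higher in Mxcre+ liver and 0 lower, where 2.62% of genes were higher and 1.78% lower. The 7 were Hmgcs1, Pmvk, Idi1, Lss, Cyp51, Nsdhl and Dhcr7, which were 2.06-fold to 2.63-fold higher. Each of these figures rests on 1 array per side.

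Whether the genotype difference at 48 h was other than at 0, 24 and 36 h was tested with a genotype by 48 h term in limma (2 residual degrees of freedom). Of 14142 genes 0 passed an adjusted p of 0.05, members included, and the smallest adjusted p of limma was 0.581 among members and among all genes alike. At an unadjusted p under 0.05, 17 of 31 members were higher and 1 was lower, where 2.8% of all genes were higher and 3.05% lower. This term was chosen with earlier results of these data known. All members share the same pair of 48 h arrays, so they are not independent observations. The term was 2.30 ± 0.23 (SE) for Nsdhl, 2.16 ± 0.24 for Cyp51, 2.34 ± 0.39 for Hmgcs1 and 2.55 ± 0.51 for Lss, with limma adjusted p of 0.581, 0.581, 0.581 and 0.638. The lower member was Abca1, at -0.70 ± 0.23 with a limma adjusted p of 0.812. The median term was 1.06 over the 31 members and -0.01 over all genes.

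The genotype difference averaged over the 4 times passed the limma test for 0 of 31 members and 0 of 14142 genes (0%); at an unadjusted p under 0.05 it was 0 members and 931 genes, 2.31% higher and 4.28% lower. The smallest limma adjusted p was 0.761 for members and 0.429 for all genes. Among the members Mvd had the widest mean difference, 0.58 ± 0.36 (SE), with a limma adjusted p of 0.764. The median over members was 0.17, and without the 48 h pair of arrays it was -0.04.

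Other measures also differed between the 48 h arrays. The 8 neutrophil markers were all higher in Mxcre+ liver at 48 h (median difference 2.26), 6 of 8 were higher at 36 h (1.57), and all 8 were lower at 0 h (-3.18). Their mean level ranged from -1.42 to 0.13 on the Mxcre- arrays and from -3.03 to 0.68 on the Mxcre+ arrays, with 1 or 2 markers not above background on 5 of the 8 arrays. The 9 macrophage markers differed by a median of -0.74, -0.55, 0.90 and 0.31 at 0, 24, 36 and 48 h, and the 5 hepatocyte markers by 0.08, -0.02, -0.17 and 0.15. At 36 and at 48 h the 4 Y-linked genes were above background in Mxcre- and not in Mxcre+ liver, and the male-biased liver genes differed by a median of -1.08 and -3.76. The median difference of the 19 synthesis enzymes was -0.24 at 36 h and 1.61 at 48 h. The part of neutrophil content and of sex in the 48 h difference was not tested.

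Among the regulators, Insig1 shared the split of the synthesis enzymes at 48 h and Insig2 did not. The level of Srebf2, the transcription factor of the pathway, was -0.16, -0.18, -0.43 and -0.82 in Mxcre- liver and -0.26, -0.43, -0.09 and -0.14 in Mxcre+ liver. Its lowest array was that of Mxcre- liver at 48 h, 1.61-fold below the Mxcre+ array of that time. The level of Insig1, which anchors Scap and is itself a target of SREBP, was 2.44, 1.12, 1.00 and 0.31 in Mxcre- liver and 2.49, 0.79, 1.32 and 1.64 in Mxcre+ liver, 2.53-fold apart at 48 h. The genotype difference of Insig1 was -0.33 at 24 h and 0.32 at 36 h, where the medians of the 19 synthesis enzymes were 0.12 and -0.24. In both genotypes Insig1 was highest at 0 h. The level of its paralog Insig2, whose liver transcript is held down by insulin, was 3.93, 6.73, 5.63 and 5.40 in Mxcre- liver and 4.07, 6.10, 5.85 and 5.61 in Mxcre+ liver. All 6 arrays after surgery exceeded both arrays of 0 h, and the genotypes differed by 0.21 at 48 h.

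The level of Scap, the escort protein, was 5.43, 5.03, 5.01 and 4.92 in Mxcre- liver and 5.63, 4.80, 5.04 and 4.87 in Mxcre+ liver, with both 0 h arrays above the other 6. The level of Mylip, a ubiquitin ligase that degrades lipoprotein receptors, was -0.78, -0.81, -1.78 and -1.49 in Mxcre- liver and -0.94, -1.52, -1.08 and -1.59 in Mxcre+ liver. Its genotype difference changed sign between 24 h (-0.72) and 36 h (0.69) and was -0.10 at 48 h.

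**Figure D3:**
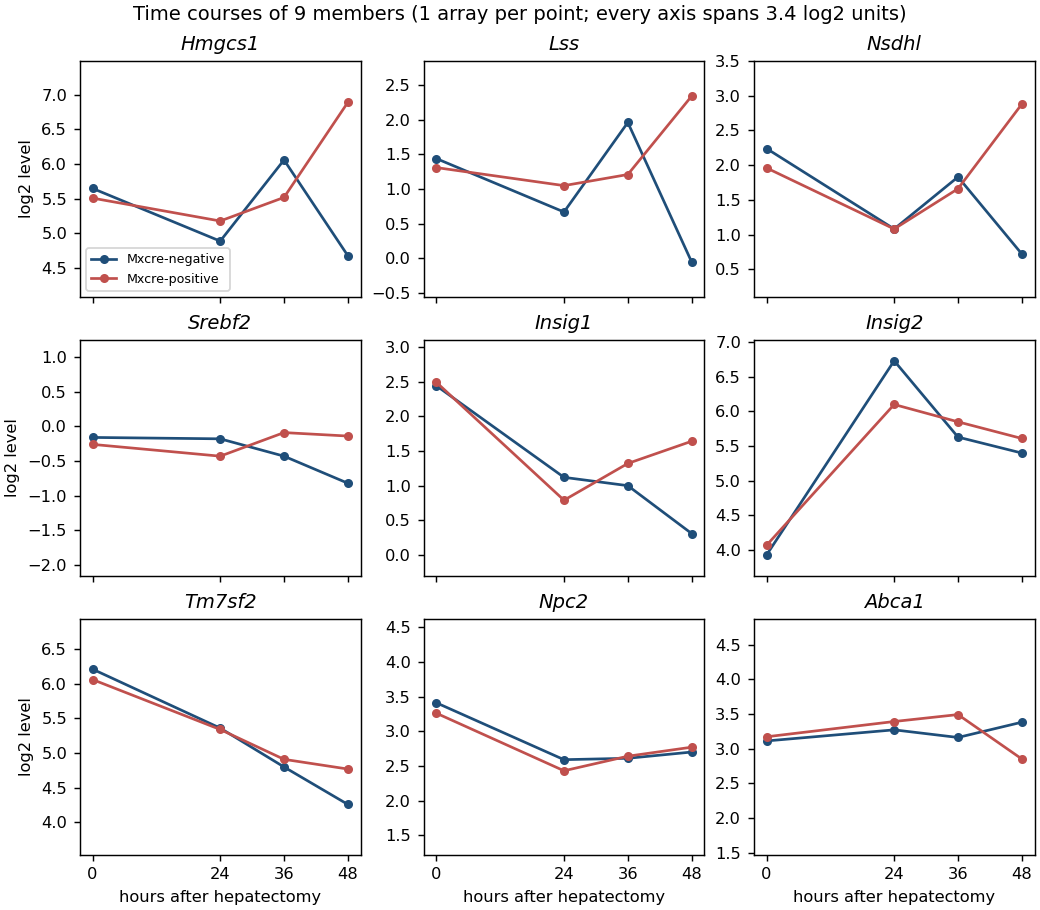
Log2 level (vertical axis, 1 array per point, each panel spanning 3.4 log2 units) against hours after hepatectomy for 9 members in Mxcre- (blue) and Mxcre+ (red) liver. The lines of Hmgcs1, Lss, Nsdhl and Insig1 part at 48 h, while those of Npc2 differ by -0.16 to 0.07 at the 4 times.

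Of the 7 transport and storage genes, 0 reached 2-fold at any time, and the median difference at 48 h was 0.07. Over all genes, 2.5% were at least 2-fold higher and 3.16% lower at 48 h. At the earlier times these shares lay between 0.793% and 2.57%, so 0 of 7 is near the share over all genes. The level of Stard4, a soluble sterol carrier and SREBP target, was 3.54, 2.40, 3.0 and 2.41 in Mxcre- liver and 3.36, 2.61, 2.83 and 3.35 in Mxcre+ liver, 1.92-fold apart at 48 h. Stard4 was the member outside synthesis most like the enzymes: its Pearson r with their mean level over the 8 arrays was 0.94, against 0.77 for Insig1 and 0.61 for Srebf2. Acat2 (-0.26), Ggps1 (-0.58), Insig2 (-0.53) and Abca1 (-0.80) had r below 0 with the mean of the other enzymes. These r are descriptions over arrays that share a scaling and a time course.

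The late endosomal pair that exports lipoprotein cholesterol took different courses. The level of Npc1, the membrane transporter, was 1.35, 2.24, 1.69 and 1.50 in Mxcre- liver and 1.51, 2.01, 2.41 and 2.15 in Mxcre+ liver, with differences of 0.73 at 36 h and 0.65 at 48 h. The level of Npc2, its soluble partner, was 3.41, 2.59, 2.61 and 2.70 in Mxcre- liver and 3.26, 2.43, 2.64 and 2.77 in Mxcre+ liver, so that both 0 h arrays exceeded the other 6.

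The acyltransferases that esterify cholesterol for storage differed by less than 2-fold at each time. The level of Soat1 was -1.02, -1.34, -1.37 and -0.96 in Mxcre- liver and -1.51, -1.28, -1.30 and -0.98 in Mxcre+ liver, and the genotypes differed most at 0 h (-0.50). The level of Soat2, the form of hepatocytes and enterocytes, was -0.31, -0.54, -0.26 and -0.94 in Mxcre- liver and -0.64, 0.24, 0.23 and -0.44 in Mxcre+ liver, with the Mxcre+ array higher at 24 h (by 0.77), 36 h and 48 h. The exporters, which respond to oxysterols through liver X receptors, did not follow the enzymes. The level of Abca1 was 3.11, 3.27, 3.16 and 3.38 in Mxcre- liver and 3.17, 3.39, 3.49 and 2.85 in Mxcre+ liver, and its Mxcre+ array of 48 h was the lowest of the 8. The level of Abcg1 was 0.10, 0.15, -0.27 and 0.22 in Mxcre- liver and -0.34, -0.28, 0.00 and 0.17 in Mxcre+ liver, with a difference of -0.06 at 48 h.

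Time after hepatectomy, averaged over the genotypes, was tested against 0 h in the additive limma model. At 24 h Insig2 rose 5.32-fold (2.41 ± 0.25 SE, limma adjusted p = 0.0206) and Ggps1 rose 1.48-fold (0.56 ± 0.11, 0.0495), while Npc2 (-0.82 ± 0.13, 0.031) and Ebp (-0.79 ± 0.12, 0.0307) fell. Members called were thus 2 higher and 2 lower of 31, where 4.43% of all genes were higher and 5.26% lower. The median over members was -0.61 and over all genes -0.03, with 24 of 31 members and 7431 of 14142 genes negative. The largest of the uncalled differences were those of Sc5d (-1.69 ± 0.39, limma adjusted p = 0.0618) and Insig1 (-1.51 ± 0.41, 0.0836). The call of Ggps1 ended with the mean of all its probes (0.32 ± 0.15, limma adjusted p = 0.237), with normexp and with no filter on dim genes; its other probe read -3.37 and -3.46 at 0 and 24 h in Mxcre- liver and -3.93 and -3.71 in Mxcre+ liver. The 4 Y-linked genes were not above background at 0 h and nearly all were at 24 h in both genotypes, so Y-linked signal and time cannot be told apart there. The 36 h and 48 h arrays lay on another slide than the 0 h arrays, so slide and time cannot be told apart in those comparisons.

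At 36 h Insig2 was again higher than at 0 h (1.74 ± 0.25 SE, limma adjusted p = 0.0246), and Tm7sf2 (-1.28 ± 0.19, 0.0252), Npc2 (-0.71 ± 0.13, 0.0325) and Ebp (-0.63 ± 0.12, 0.0367) were lower. These were 1 and 3 of 31, where 7.83% of genes were higher and 8.64% lower. At 48 h Insig2 was higher (1.51 ± 0.25, limma adjusted p = 0.0248), and Tm7sf2 (-1.62 ± 0.19, 0.014), Npc2 (-0.60 ± 0.13, 0.0397) and Scap (-0.63 ± 0.15, 0.0463) were lower. These were again 1 and 3 of 31, where 8.12% of genes were higher and 9.6% lower. With no filter on dim genes the calls of Ebp and Npc2 at 24 and 36 h and of Npc2 and Scap at 48 h ended (limma adjusted p of 0.0569 to 0.0759), and those of Ebp at 36 h and Scap at 48 h also ended with quantile normalisation and with the deposited matrix. Sterol enzymes that split between the genotypes had wide errors here: Hmgcs1 at 48 h was 0.21 ± 0.68 and Lss was -0.23 ± 0.76, with limma adjusted p of 0.844 and 0.845.

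Because the genotypes parted at 48 h, the earlier times were also fitted without that pair of arrays, an alternative added after the data were seen. At 24 h Insig2 (limma adjusted p = 0.0459) was then the member called higher and Sc5d (-1.69 ± 0.17, 0.0425) the member called lower, where 1.72% and 1.95% of genes were called. At 36 h Insig2 (0.0497) was called higher and Tm7sf2 (0.0413) and Sc5d (-1.18 ± 0.17, 0.047) lower by limma, where 3.5% and 3.08% of genes were called. The calls of Ggps1, Ebp and Npc2 at 24 h and of Ebp and Npc2 at 36 h ended, with limma adjusted p between 0.0588 and 0.0905.

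Other probes of the members gave the same picture for most genes. Of 21 further probes in 17 genes, 17 in 14 genes were above background on all 8 arrays; 14 of the 17 had the sign of the brightest probe at 48 h and 15 lay within 0.5 of its log2 difference. The exceptions in size were a Cyp51 probe with 1.09 against 2.12 and the Ggps1 probe with -0.69 against 0.05. The other Insig2 probe, placed on another RefSeq transcript, read 3.09, 5.83, 4.69 and 4.75 in Mxcre- liver and 3.23, 5.22, 4.72 and 4.75 in Mxcre+ liver.

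Lists of genes next to the pathway had median differences between -0.13 and 0.33 at 48 h, with single genes from -3.72 to 1.32. Of the 10 measured genes that use isoprenoids for dolichol, ubiquinone and protein prenylation, 2 were higher in Mxcre+ liver, with a median difference of -0.13. Of the 11 that process SREBP or degrade sterol regulators, 5 were higher and the median was -0.05; Srebf1, the paralog of Srebf2 that drives fatty acid synthesis, stood at 4.72 in Mxcre- and 5.33 in Mxcre+ liver. The 7 genes of acetyl-CoA and NADPH supply had a median of 0.33, and the widest was malic enzyme Me1 (1.08). Of 13 efflux and lipoprotein genes 10 were higher (median 0.28), led by the lipoprotein receptor Vldlr (1.32) and the sterol exporter Abcg5 (0.82). The 11 intracellular sterol carriers had a median of -0.08, and the 8 genes of bile acid and oxysterol synthesis one of -0.10. The widest of the last list was Cyp7b1, at 5.90 in Mxcre- and 2.17 in Mxcre+ liver, a gene that is also on the list of male-biased liver genes.

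**Figure D4:**
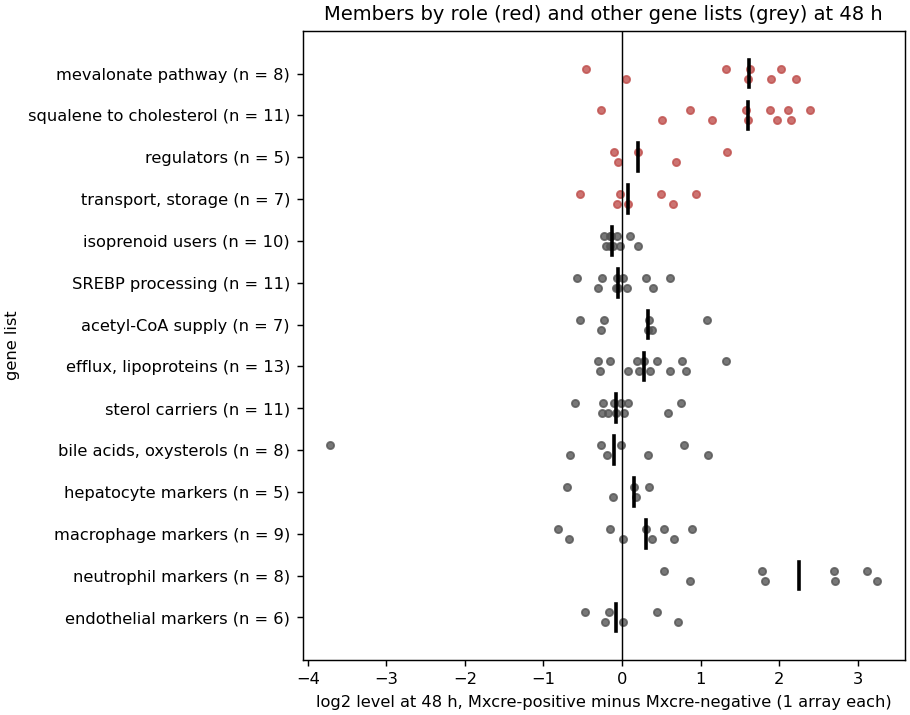
Log2 level at 48 h in Mxcre+ minus Mxcre- liver (1 array each) for the genes (points) of each list, with members in red, other lists in grey and the list's median as a bar. The medians of both synthesis lists lie at 1.61, above all other pathway lists (-0.13 to 0.33), and that of the neutrophil markers lies at 2.26.

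After hepatectomy these neighbouring genes changed in their own ways. Srebf1 fell at 24 h (-2.28 ± 0.24 SE, limma adjusted p = 0.0206) and was lower at 36 and 48 h as well. Acss2, which activates acetate and is a target of SREBP, fell at 24 h (-2.22 ± 0.25, limma adjusted p = 0.0227), and Acly, the citrate lyase, fell by 0.98 ± 0.20 (0.0476). Cyp7a1, which starts the classic route from cholesterol to bile acids, fell at 24 h (-7.04 ± 0.55, limma adjusted p = 0.0179), with 3.92 and 3.19 at 0 h against -3.98 and -2.99 at 24 h in Mxcre- and Mxcre+ liver. Nus1, a subunit of the enzyme that makes dolichol precursors, rose at 24 h (1.22 ± 0.12, limma adjusted p = 0.0183). Counts over the lists at 24 h were 1 higher of 10 isoprenoid users, 1 higher and 1 lower of 11 in SREBP processing, 3 lower of 7 in acetyl-CoA supply, 3 lower of 13 in efflux and lipoproteins, 1 lower of 8 in bile acid synthesis, and 0 of 11 among the intracellular carriers, where 4.43% of all genes were higher and 5.26% lower.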

How the data were processed

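Total RNA of 8 liver samples was labelled with Cy3 and hybridised to Agilent arrays of a single colour, 1 per genotype and time. The processed signal is, per the file headers, a fluorescence intensity from Feature Extraction 10.7.3.1 (10.7 per the submitters' processing notes), background-subtracted and not normalised between arrays; flags in the deposited files mark outliers, saturation and signal well above background. The deposited matrix holds log2 values with no stated scale. Each of its 8 columns had a median of 5.51 and correlated with log2 signal of its own array at 0.9994 or more across probes. The matrix was therefore read as normalised log2 signal and used as an alternative.

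Levels are log2 processed signal minus the array's 75th percentile. Control spots and spots marked as outliers were left out, which dropped 118 of 41174 probes. Of 41056 kept, 26839 had a RefSeq gene, and the brightest probe stood for each of 18316 genes. Genes with signal well above background on 2 or more arrays were tested with limma 3.58.1 under R 4.3.3 (data.table at 1.17.8) in an additive model of time and genotype, or with a genotype by 48 h term, with calls at an adjusted p of 0.05 (Benjamini-Hochberg, 14142 genes). Within-time differences have 1 array a side and no test; a fold of 2 was counted. The additive fit was tested on simulated data for its genotype and 24 h terms. The fit with the genotype by 48 h term was not.

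The members, the other lists and the 48 h term were chosen with earlier results of these data known. All 31 members are named. Of the other lists, genes are named that passed the test, had the 2 widest differences of their list or define a cell type. Alternatives were normexp (offset 50), quantile normalisation, the deposited matrix, the mean of all probes, no filter, pairs of arrays left out, single slides and a Y-linked covariate. Normexp on the mean signal was not run, since the scanner files used hold no such column; the median signal was used, and 1.43% of spots took the array's median background. Arrays of 0 and 24 h lay on slide 1 and those of 36 and 48 h on slide 2. Precision is limited by the number of arrays.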

Additional observations from a re-analysis of the deposited data

Results flagged for a closer look

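From 0 to 48 h, 15 members went opposite ways in the genotypes, 14 of them with a negative sign in Mxcre- and a positive sign in Mxcre+ liver and 1 the reverse. In Mxcre+ liver the change was 0.06 for Sqle, 0.09 for Mvk, 0.12 for Srebf2 and 0.15 for Msmo1, no larger than the scanner's error of up to 0.15. Among all 14142 genes tested 24.2% went opposite ways and 12.8% did so with the negative sign in Mxcre- liver. The difference itself was not tested for these changes, since each rests on 1 array a side.

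In the mevalonate pathway, the change in Mxcre+ minus that in Mxcre- liver was 2.35 for Hmgcs1, 1.44 for Mvk, 1.60 for Pmvk, 1.81 for Idi1 and 2.43 for Fdps on the log2 scale. From squalene on it was 1.50 for Sqle, 2.52 for Lss, 2.16 for Cyp51, 2.03 for Msmo1, 2.44 for Nsdhl, 1.69 for Hsd17b7 and 1.21 for Dhcr7. It was 0.78 for the transcription factor Srebf2 and 0.83 for the esterifying enzyme Soat2, and -0.59 for the exporter Abca1. Mvd, Fdft1, Insig1, Sc5d and Stard4 were also split at 48 h but were below their 0 h level in both genotypes. The neutrophil markers had a genotype difference of -3.18 at 0 h and 2.26 at 48 h (medians). The 4 Y-linked genes were not above background on both 0 h arrays and on the Mxcre+ array of 48 h, and were above it on the Mxcre- array of 48 h. The part of both in these changes was not tested.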

How the results depend on the processing

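No called gene changed direction under any alternative run. The count of members at least 2-fold higher at 48 h was 15 under normexp, quantile normalisation and the deposited matrix and 17 with the mean of all probes, and the member median ranged from 0.94 to 1.14. Calls against 0 h depended on the setting; the cause was not tested. At 24 h, members called higher (2) became 1 with normexp, the mean of all probes, no filter and without the 48 h pair. Ggps1 lost its call in each. Members called lower (2) became 5 with normexp, 0 with no filter and 1 without the 48 h pair. Genes called at 24 h in either direction were 1370 in the main fit. They were 1820 with normexp, 1239 with the mean of all probes, 580 with no filter and 519 without the 48 h pair. At 36 h, members called lower (3) became 1 with no filter, where genes called in either direction went from 2329 to 990. Members at least 2-fold higher in Mxcre+ liver at 36 h (0) became 1 with the mean of all probes. That member was Mylip, at 1.05, and its other probe was above background on 0 arrays. At 48 h, members called higher (1) became 2 with quantile normalisation and with the deposited matrix. Members called lower (3) became 1 with no filter, which tests 18316 genes. Genes called at 48 h in either direction were 2507 in the main fit. They were 2424 with quantile normalisation, 2411 with the deposited matrix and 1573 with no filter. Calls of single genes were lost in 18 cases. The uncalled genotype median over members (0.17) changed sign to -0.04 without the 48 h pair and on slide 1 alone and was 0.45 on slide 2 alone and -0.08 with the Y-linked covariate. The 48 h difference from 0 h (median -0.30) was -0.95 in Mxcre- liver alone and 0.15 in Mxcre+ liver alone. The additive model already pairs the arrays of a time. No paired analysis was possible because no replicate numbers link samples beyond that.

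With 1 liver sample per group, differences between livers of the same genotype and time were not measured. In comparisons of 36 or 48 h with 0 or 24 h, time cannot be told apart from slide. The term for 48 h has 2 residual degrees of freedom. The brightest probe of every member was well above background. Whether the signal range of a probe limited the folds read from it was not tested.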
